A study of Mus musculus with 15 samples.

Results

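The insulin-like growth factor (IGF) axis was described in mammary tissue by 10 genes taken by name from the expression tables: the ligands Igf1 and Igf2, the receptors Igf1r and Igf2r, and the binding proteins Igfbp2, Igfbp3, Igfbp4, Igfbp5, Igfbp6 and Igfbp7. The tables listed 52526 genes, of which 9506 reached 1 CPM (read counts scaled to the mapped reads of the library) in at least 7 mice and were tested. Of the 10 genes, 8 passed that filter, and Igf2 and Igfbp2 did not. Female nu/nu nude mice (Foxn1 mutant, athymic) had received BDE-47, a polybrominated flame retardant, or only its vehicle, PEG300 with 1% DMSO, over 16 weeks. All mice carried subcutaneous osmotic pumps, which were replaced midway and were started after 8 weeks of age. The BDE-47 group had 7 mice, dosed toward 0.03 mg per kg daily, and the vehicle group had 8 mice. Each library came from the left 4th mammary tissue of a different mouse, and some of the mice had xenografts for another study, which the labels do not mark by mouse. In such bulk tissue, fewer cells of a type cannot be told apart from less RNA per cell.

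IGF1 and IGF2 are small secreted hormones that act through IGF1R, a receptor tyrosine kinase, to drive growth and survival. Growth hormone induces Igf1 in liver and in the mammary stroma, and IGF1 is needed for the growth of mammary ducts at puberty. IGF2R carries no kinase; it takes up IGF2 for breakdown and sorts lysosomal enzymes bearing mannose 6-phosphate. The binding proteins hold the ligands in blood and matrix, and most can either withhold them from the receptor or deliver them to it.

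Libraries held between 10061113 and 19575029 mapped reads, and 6929 to 12682 genes per mouse were above 1 CPM. Values are log2(CPM), in which a step of 1 is 2-fold, and a value of 0 means under 1 CPM. Of the 150 values of the IGF axis genes, 29 were listed at 0. Of 15 housekeeping genes, 4 were also at 0 in at least 1 mouse, Tbp and Pgk1 in 12 mice each. A 0 is therefore given only as listed. Of the 8 white adipocyte, 8 fibroblast and 8 luminal epithelium markers, at least 6 of each list were above 1 CPM in every library, but the libraries labelled vehicle replicates 6 and 8 and BDE-47 replicate 6 stood apart from the rest. All 8 B cell markers were above 1 CPM in vehicle replicates 6 and 8, with summed levels of 482 and 578 CPM, against at most 4.05 CPM in the 12 libraries other than these 3. Luminal markers summed to 37.7 and 132 CPM and adipocyte markers to 490 and 1190 CPM in those 2 libraries, against at least 617 and 7970 CPM in the 12. Skeletal muscle markers summed to 82200 CPM in BDE-47 replicate 6, against at most 180 CPM in the 12, and its luminal markers summed to 150 CPM. Results are therefore given with and without these 3 libraries.

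Promoter sequences are shown for 3 binding proteins that hold most of the IGFBP transcripts: Igfbp4 and Igfbp7, whose levels went together over the mice, and Igfbp5, whose level did not follow theirs. Each run is the 250 bases before an annotated start in RefSeq GRCm38.p6, read 5′ to 3′ on the gene's strand, and matches to 4 motifs are in capitals. The windows are chr11:99040994-99041243 (plus strand) for Igfbp4, chr5:77408046-77408295 (minus strand) for Igfbp7 and chr1:72874866-72875115 (minus strand) for Igfbp5.
Igfbp4: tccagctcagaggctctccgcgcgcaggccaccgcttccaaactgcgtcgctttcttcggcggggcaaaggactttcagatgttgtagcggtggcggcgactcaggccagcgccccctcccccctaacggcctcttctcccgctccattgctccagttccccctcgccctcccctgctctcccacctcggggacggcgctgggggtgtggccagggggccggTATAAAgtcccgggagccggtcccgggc
Igfbp7: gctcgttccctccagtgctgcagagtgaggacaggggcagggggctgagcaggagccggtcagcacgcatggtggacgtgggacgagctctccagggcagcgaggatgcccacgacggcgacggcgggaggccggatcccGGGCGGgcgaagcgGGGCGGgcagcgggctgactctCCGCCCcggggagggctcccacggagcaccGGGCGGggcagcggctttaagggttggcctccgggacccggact
Igfbp5: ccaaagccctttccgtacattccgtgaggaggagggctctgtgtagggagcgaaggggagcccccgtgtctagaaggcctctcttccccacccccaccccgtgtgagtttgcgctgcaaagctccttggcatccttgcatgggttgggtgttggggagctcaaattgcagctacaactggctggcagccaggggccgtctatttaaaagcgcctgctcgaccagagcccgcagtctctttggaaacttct

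The motifs searched on both strands were the TATA box TATAAA, the GC box GGGCGG, the E-box CACGTG and the STAT motif TTCNNNGAA, and no matches overlapped in these 3 windows. The Igfbp4 window held a TATA box 28 bases before the start and no GC box. The Igfbp7 window held 4 GC boxes, 110, 96, 74 and 44 bases before the start, and no TATA box. The Igfbp5 window held none of the 4. Of 32851 mouse promoter windows of this length, 12.4% held the TATA box, 32.7% the GC box, 6.02% the E-box and 7.02% the STAT motif. The 10 genes had 14 such windows, of which 6 held a GC box, 2 a TATA box, 2 an E-box and none the STAT motif. The base composition was also unlike, with 69.2% G and C for Igfbp4, 74.0% for Igfbp7 and 58.8% for Igfbp5.

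BDE-47 and vehicle groups overlapped for all 10 genes, as they did for all but 0.0105% of the genes tested. No IGF axis gene passed an adjusted p of 0.05 in limma, and neither did any of the 9506 genes tested (background 0%, lowest adjusted p = 0.982). None passed an unadjusted limma p of 0.05, which 4.65% of all genes tested did. Of the 8 that passed the filter, 4 had a higher mean with BDE-47, as did 49.1% of all genes tested, and 4 a lower one, with a median difference of 0.19 log2, against -0.02 for all genes tested. Igf1r, Igfbp3 and Igfbp5 were more than 2-fold higher in mean with BDE-47, where 13% of all genes tested were, and none was more than 2-fold lower, where 13.2% were (26.3% in either direction). Igf1r and Igfbp5 lay just past that line, at 2.015-fold and 2.012-fold. The exact permutation test over the mice, in which the smallest two-sided p is 0.000155, gave p under 0.05 for 1 of the 8, Igf1r. The same test gave that for 4.42% of all genes tested.

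**Figure D1:**
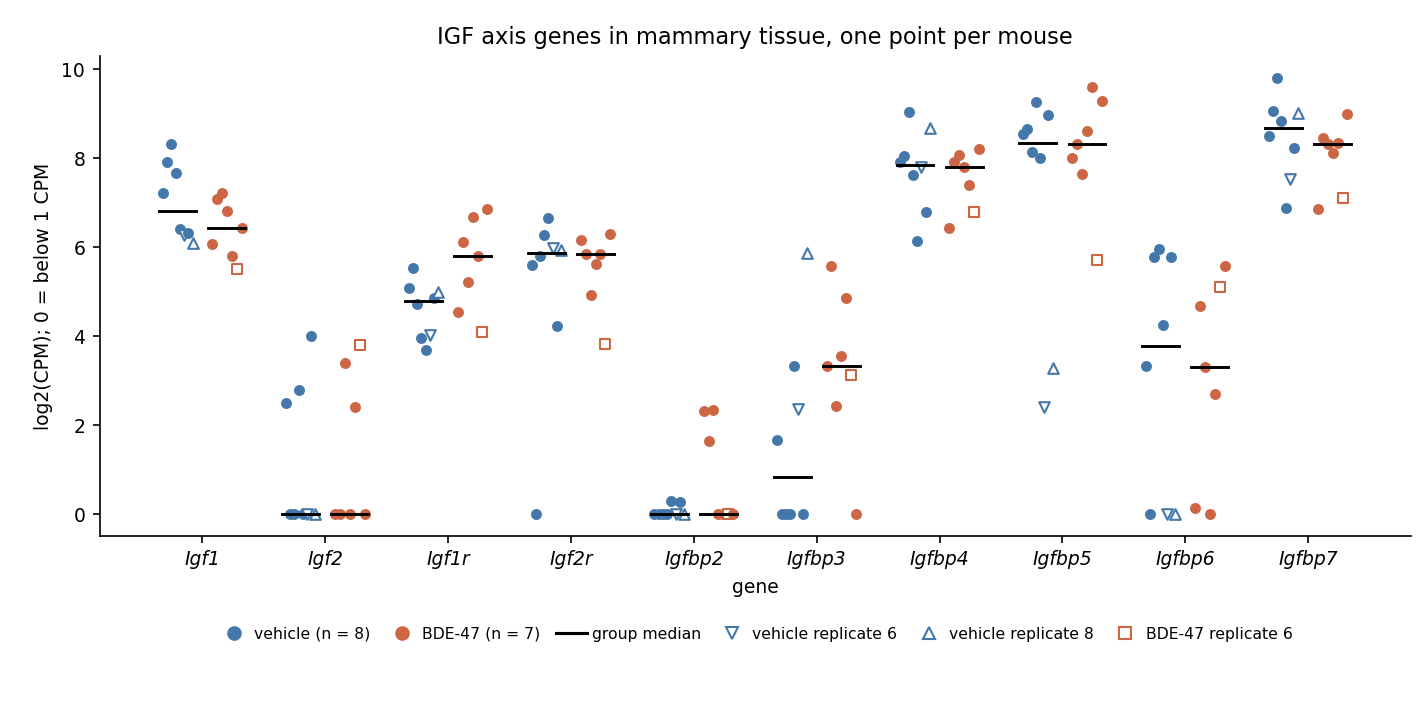
Level of each IGF axis gene in log2(CPM) on the vertical axis, with 1 point per mouse, blue for 8 vehicle and orange for 7 BDE-47 mice, open symbols for the 3 libraries that stood apart and bars for group medians. Igfbp7, Igfbp4 and Igfbp5 lie highest, the groups overlap for every gene, and the open triangles of vehicle replicates 6 and 8 lie at 2.40 and 3.29 for Igfbp5.

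Igf1, the ligand induced by growth hormone (chr10:87858265-87937047, plus strand), was read in all 15 mice. Its level ran from 6.08 to 8.32 log2(CPM) with a median of 6.82 in vehicle mice, and from 5.51 to 7.21 with a median of 6.43 in BDE-47 mice. The 4 highest levels were all in vehicle mice (7.22, 7.67, 7.92 and 8.32), but the remaining vehicle mice lay within the BDE-47 range. The mean was 7.03 ± 0.86 (SD, n = 8) with vehicle and 6.41 ± 0.65 (SD, n = 7) with BDE-47. The difference of -0.61 log2 (limma SE 0.44, 95% interval -1.51 to 0.28) did not exceed the spread between mice (exact permutation p = 0.147). It was -0.75 without the 3 libraries that stood apart (exact permutation p = 0.0974). With only vehicle replicates 6 and 8 left out it was -0.90 (exact permutation p = 0.0501, limma p = 0.0434, adjusted p = 0.991).

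Igf2, the fetal ligand expressed from the paternal allele (chr7:142650768-142666816, minus strand), was above 1 CPM in 6 mice. The values were 2.4995, 2.79 and 3.995 log2(CPM) in vehicle replicates 1, 4 and 7. In BDE-47 replicates 3, 5 and 6 they were 3.39, 2.40 and 3.81. All other mice were listed at 0, so that 3 of 8 vehicle mice and 3 of the 7 given BDE-47 exceeded the floor (Fisher's exact p = 1.0). The highest BDE-47 value was in the library rich in muscle markers. H19, the imprinted noncoding neighbour of Igf2, was at 0 in all 8 vehicle mice and above it in 5 of the 7 mice given BDE-47 (Fisher's exact p = 0.00699). Its values there were 0.13, 7.04, 1.81, 0.32 and 9.12 log2(CPM) in replicates 1, 2, 3, 5 and 6, and the highest was again the library rich in muscle markers. In replicates 1 and 5 these amounted to 11 and 18 reads, just above the floor. The exact permutation p for H19 was also 0.00699 over all mice, 0.0606 without the 3 libraries and 0.0863 without vehicle replicates 6 and 8 only. H19 did not pass the filter on low values.

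Igf1r, the signalling receptor for both ligands (chr7:67952257-68233668, plus strand), was read in all mice, with 201 to 1972 reads. Its level ran from 3.69 to 5.53 log2(CPM) with a median of 4.78 in vehicle mice, and from 4.10 to 6.86 with a median of 5.81 in BDE-47 mice. In BDE-47 replicates 2, 4, 5 and 7 the level (6.12, 6.67, 5.81 and 6.86) was above every vehicle mouse, whereas replicates 1, 3 and 6 lay within the vehicle range. The mean was 4.60 ± 0.64 (SD, n = 8) with vehicle and 5.61 ± 1.05 (SD, n = 7) with BDE-47, with 5 of the 7 BDE-47 levels above the vehicle mean. The difference was 1.01 log2 (limma SE 0.60, 95% interval -0.20 to 2.22). The exact permutation p was 0.042, while limma gave p = 0.0997 and an adjusted p of 0.982 over all genes tested. The difference was 1.23 without the 3 libraries that stood apart (exact permutation p = 0.0281, limma p = 0.046, adjusted p = 0.968). With vehicle replicates 6 and 8 alone left out it was 0.98 (exact permutation p = 0.0793), and with BDE-47 replicate 6 alone left out 1.26 (limma p = 0.0383, adjusted p = 0.952). Leaving out each mouse in turn gave 0.80 (without BDE-47 replicate 7) to 1.26 (without BDE-47 replicate 6). The difference was under 2-fold without BDE-47 replicate 2, 4, 5 or 7 or vehicle replicate 4, 5 or 6.

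Igf2r, the mannose 6-phosphate receptor that clears IGF2 (chr17:12682406-12769706, minus strand), was listed at 0 in vehicle replicate 2. The other 7 vehicle mice ran from 4.23 to 6.65 log2(CPM), and the 7 BDE-47 mice ran from 3.82 to 6.30. The medians were 5.87 with vehicle and 5.85 with BDE-47. The difference of means, 0.45 log2 (limma SE 0.72), did not exceed the spread between mice (exact permutation p = 0.765). It was -0.27 without the library at 0, 1.03 without the 3 libraries that stood apart (exact permutation p = 0.433) and 0.75 without vehicle replicates 6 and 8 only. Airn, the imprinted antisense transcript over Igf2r, was above 1 CPM in 3 mice, at 2.52 log2(CPM) at most. Whether reads were assigned by strand was not stated in the sources used here.

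**Figure D2:**
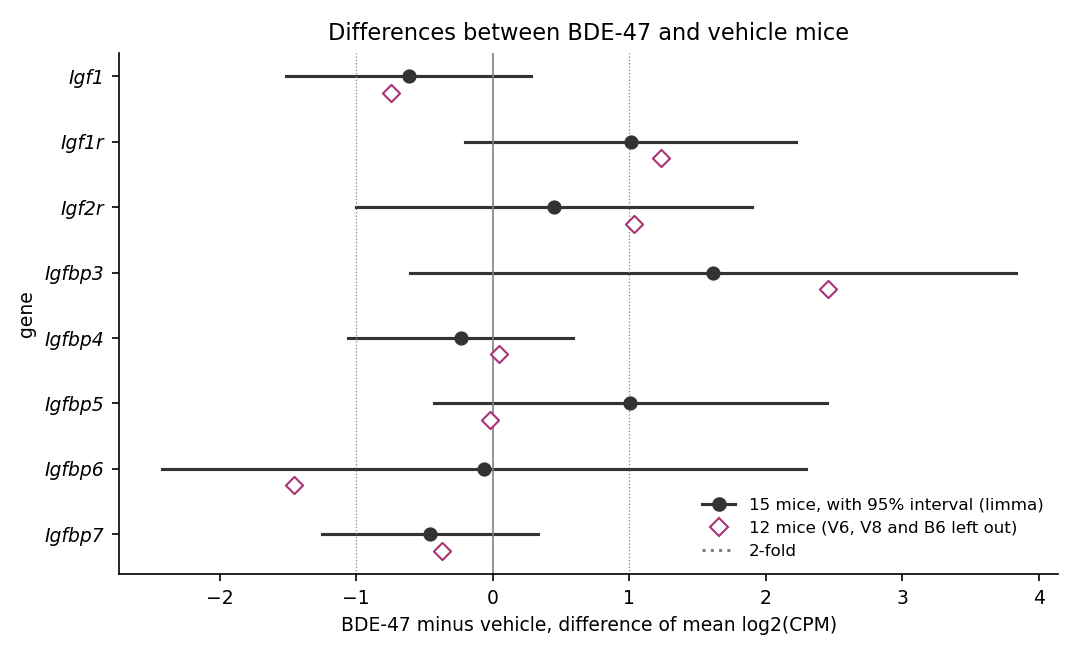
Difference of mean log2(CPM), BDE-47 minus vehicle, on the horizontal axis for the 8 IGF axis genes tested. Filled points with bars give all 15 mice and the limma 95% interval, open diamonds the 12 mice left without vehicle replicates 6 and 8 and BDE-47 replicate 6, and dotted lines 2-fold. All 8 intervals include 0, and the diamond of Igfbp5 sits at -0.02 against 1.01 for all mice.

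Igfbp7 (chr5:77349240-77408045, minus strand), a low-affinity IGF binding protein of vessel walls and matrix whose promoter carries the 4 GC boxes shown above, was among the 3 most abundant transcripts of the axis. It ran from 6.87 to 9.79 log2(CPM) with a median of 8.67 in vehicle mice, and from 6.85 to 8.99 with a median of 8.31 in BDE-47 mice. The 3 highest levels (9.79, 9.05 and 9.01) were in vehicle mice and the lowest in a BDE-47 mouse, and all other mice lay in a range that both groups shared. The mean was 8.48 ± 0.93 (SD, n = 8) and 8.02 ± 0.77 (SD, n = 7), and 6 of 7 BDE-47 mice were below the vehicle mean. The difference was -0.46 log2 (SE 0.39, 95% interval -1.25 to 0.33, exact permutation p = 0.320). Polr2b, an RNA polymerase subunit whose model overlaps the far end of Igfbp7, was above 1 CPM in 10 mice and at most 6.15 log2(CPM).

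Igfbp4 (chr11:99040005-99052655, plus strand), an inhibitor of IGF action that the protease PAPP-A cleaves, was read in all mice. It ran from 6.14 to 9.04 log2(CPM) with a median of 7.85 in vehicle mice, and from 6.43 to 8.21 with a median of 7.80 in BDE-47 mice. The BDE-47 mice lay wholly within the vehicle range. The mean was 7.75 ± 0.94 (SD, n = 8) and 7.51 ± 0.68 (SD, n = 7), a difference of -0.24 log2 (SE 0.41, 95% interval -1.06 to 0.59, exact permutation p = 0.592). Without the 3 libraries it was 0.05.

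Igfbp5 (chr1:72858065-72874865, minus strand), a binding protein known to increase in the involuting mammary gland, lies 5590 bases from Igfbp2. It ran from 2.40 to 9.25 log2(CPM) with a median of 8.34 in vehicle mice, and from 5.71 to 9.59 with a median of 8.32 in BDE-47 mice. The 3 lowest levels were those of vehicle replicate 6 (2.40), vehicle replicate 8 (3.29) and BDE-47 replicate 6 (5.71), whereas the other 12 mice ran from 7.64 to 9.59 with a median of 8.57. These 3 libraries also had the lowest luminal marker sums, and 6 of 8 luminal markers above the floor in each, against 7 or 8 in the 12. Their basal epithelium marker sums were lowest too, at 37.9, 3.76 and 31.5 CPM in the same order, against at least 86.1 CPM in the 12. The mean was 7.15 ± 2.70 (SD, n = 8) with vehicle and 8.16 ± 1.28 (SD, n = 7) with BDE-47. The difference of means was 1.01 log2 over all mice (limma SE 0.71, 95% interval -0.43 to 2.45, limma p = 0.164, limma without a trend p = 0.340, exact permutation p = 0.390). It was -0.02 without the 3 libraries (exact permutation p = 0.959) and -0.43 without vehicle replicates 6 and 8 only. With vehicle replicate 6 alone left out it was 0.33, and with vehicle replicate 8 alone left out 0.46.

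Igfbp3 (chr11:7206086-7215498, minus strand), the main IGF carrier of serum, was above 1 CPM in 4 of 8 vehicle and 6 of 7 BDE-47 mice (Fisher's exact p = 0.282). The vehicle values above the floor were 1.67, 3.34, 2.36 and 5.87 log2(CPM) in replicates 1, 5, 6 and 8. The BDE-47 values were 3.33, 5.57, 2.43, 3.56, 4.86 and 3.12 in replicates 1 to 6, and replicate 7 was at 0. The highest level of all was in vehicle replicate 8, and the BDE-47 range lay within the vehicle range. The difference was 1.61 log2 (limma SE 1.10, 95% interval -0.61 to 3.83, exact permutation p = 0.145), with 6 of the 7 BDE-47 levels above the vehicle mean. It was 2.46 without the 3 libraries (exact permutation p = 0.0455, limma p = 0.0403, adjusted p = 0.968). It was 2.43 without vehicle replicates 6 and 8 (exact permutation p = 0.0251, limma p = 0.0348, adjusted p = 0.991) and 2.21 without vehicle replicate 8 alone (limma p = 0.0426). Leaving out each mouse in turn gave 1.23 (without BDE-47 replicate 2) to 2.21 (without vehicle replicate 8, the highest level). The log2 ratio of mean CPM over all mice was 0.74, under 2-fold. Of all genes tested, 4.43% had an exact permutation p and 4.68% a limma p under 0.05 without the 3 libraries, and 4.5% a limma p under 0.05 without vehicle replicates 6 and 8.

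Igfbp6 (chr15:102144186-102149512, plus strand), a binding protein that prefers IGF2, was above 1 CPM in 5 vehicle and 6 BDE-47 mice (Fisher's exact p = 0.569). The vehicle values were 3.33, 5.77, 5.96, 4.24 and 5.77 log2(CPM) in replicates 1, 3, 4, 5 and 7, and the others were at 0. The BDE-47 values were 0.13, 4.67, 3.30, 2.69, 5.11 and 5.57 in replicates 1, 2, 3, 5, 6 and 7, and replicate 4 was at 0. The values were spread alike over both groups, with a difference of -0.07 log2 (95% interval -2.43 to 2.29, exact permutation p = 0.958). The sign of this difference depended on how values under 1 CPM were treated. Vehicle replicates 6 and 8 were among the vehicle mice at 0, and without the 3 libraries the difference was -1.45 (exact permutation p = 0.288).

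Igfbp2 (chr1:72824480-72852474, plus strand), a binding protein prominent in fetal tissue, had the lowest level of the axis. It was at 0.29 and 0.26 log2(CPM) in vehicle replicates 5 and 7, which were 19 and 18 reads. In BDE-47 replicates 1, 2 and 3 it was at 2.31, 1.64 and 2.33, which were 50, 46 and 70 reads. All other mice were at 0. The 3 highest values were in BDE-47 mice, but the other 4 BDE-47 mice were at 0, as were 6 of the 8 vehicle mice (exact permutation p = 0.0956, Fisher's exact p = 0.608 for mice above the floor).

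The assay reads each transcript once near its 3′ end, so transcript length does not enter levels compared between genes. How fully the reads of each gene were counted was not tested, and the housekeeping genes Tbp and Pgk1 were at 0 in 12 mice each. The order and shares below are therefore those of listed levels. In mean log2(CPM) over the 15 mice the order was Igfbp7 (8.26), Igfbp4 (7.64), Igfbp5 (7.62), Igf1 (6.74), Igf2r (5.27), Igf1r (5.07), Igfbp6 (3.10), Igfbp3 (2.41), Igf2 (1.26) and Igfbp2 (0.46). Of these neighbours, only Igfbp7 and Igfbp4 differed by more than 1 SD of their paired difference (0.63 ± 0.43, n = 15), with Igfbp7 higher in 14 of 15 mice. Igfbp4, Igfbp5 and Igf1 followed with gaps smaller than the spread between mice, as did Igf2r and Igf1r, the 2 receptors. The place of Igfbp5 rested on the 3 libraries that stood apart, since over the other 12 mice it came first (8.58), before Igfbp7 (8.36) and Igfbp4 (7.61). Its lead over Igfbp7 there was smaller than the spread of the paired difference (0.22 ± 0.85, n = 12). Over the same 12 mice Igfbp4 was above Igf1 by more than 1 SD of their paired difference (0.67 ± 0.61), in 10 of the 12. Igfbp5 was above Igfbp4 in 10 of the 15 mice, and its mean CPM over all mice was 336.3 against 228.5. Igfbp4, Igfbp5 and Igfbp7 together made up at least 87.5% of the summed IGFBP CPM of each mouse, with a median of 96.8%. The summed IGFBP level ran from 419 to 1750 CPM with vehicle and from 344 to 1470 CPM with BDE-47. Igfbp5 made up 0.984% of it in vehicle replicate 8, the lowest share, with medians of 35.6% in vehicle and 42.1% in BDE-47 mice. The Igf1 level was 0.0681 to 0.202 of the IGFBP sum in vehicle mice (median 0.167) and 0.0426 to 0.184 in BDE-47 mice (median 0.133), ranges that overlapped over most of their length.

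**Figure D3:**
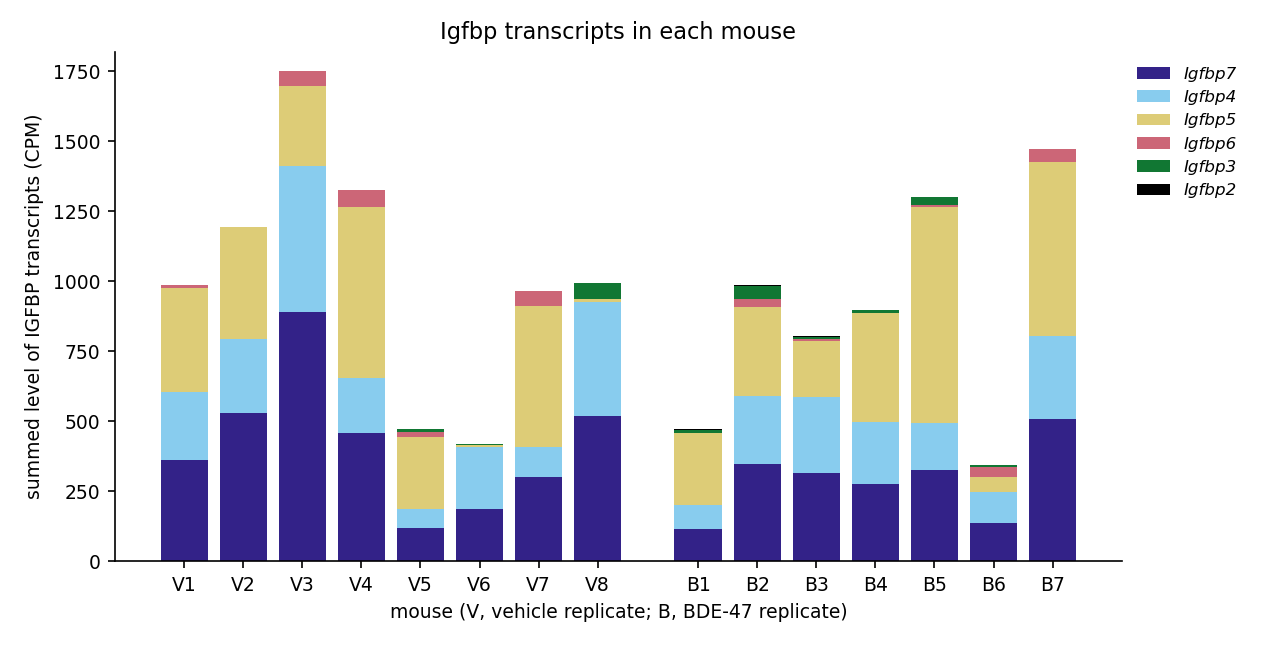
Summed CPM of the 6 IGFBP transcripts in each mouse, stacked by gene, with 8 vehicle mice (V) and 7 BDE-47 mice (B). The bars are made of Igfbp7, Igfbp4 and Igfbp5 in nearly every mouse, and V6 and V8 show almost no Igfbp5.

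Levels of 6 of the genes, those above 1 CPM in at least 12 mice, were compared over the 15 mice in 15 pairs after the mean of each group was removed. Igfbp4 and Igfbp7 went together most closely, with r = 0.87 and rho = 0.84 (permutation p = 4e-05 and 0.00019, adjusted 0.0006 and 0.0028). The relation was r = 0.75 without the 2 mice farthest from the median of Igfbp4, and r = 0.94 over the 12 mice without the 3 libraries that stood apart. The promoter windows of these 2 genes, printed above, shared none of the 4 motifs. Igf1r and Igfbp7 gave r = 0.71 and rho = 0.61 (permutation p = 0.0035 and 0.017, adjusted 0.026 and 0.097), and r = 0.71 without the 2 farthest mice. Over the 12 mice the adjusted p for r of this pair was 0.098. Igf1 and Igfbp4 gave r = 0.55 and rho = 0.425 (adjusted permutation p = 0.11 and 0.35) over 15 mice and r = 0.83 (adjusted permutation p = 0.0037) over the 12, with r = 0.37 when the 2 farthest mice were left out of the 15. Pairs with Igf2r, which was at 0 in 1 mouse, ran from r = -0.21 to -0.04 over 15 mice and from -0.445 to -0.0124 over the 12, and the pair with Igf1 turned from -0.21 to 0.24 without the 2 farthest mice. Igfbp5 fell into separate clusters of mice, so its relations are given only over the 12, where r was -0.30 with Igf1, 0.43 with Igf1r, 0.06 with Igfbp4 and 0.35 with Igfbp7.

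As a description, the genes most alike in pattern were found among 2576 others above 1 CPM in all mice. For Igfbp4 these were Igfbp7 (r = 0.87), the intermediate filament gene of mesenchymal cells Vim (r = 0.85) and Dazap2 (r = 0.82). For Igfbp7 they were the phospholipid transfer protein gene Pltp (r = 0.87), Igfbp4 (r = 0.87) and the lysosomal amidase gene Naaa (r = 0.82). For Igf1 they were haptoglobin, Hp (r = 0.90), the basement membrane collagen Col4a1 (r = 0.88) and Nnat (r = 0.88). For Igf1r they were Pltp (r = 0.80), the endosome tether Eea1 (r = 0.78) and the histone demethylase Kdm2a (r = 0.78). All of these were read in the same 15 libraries, which differ in depth and tissue makeup. For Igfbp5 they were the luminal keratins Krt19 and Krt18 and the chemokine Cxcl14, whose r over the 12 mice was 0.51, 0.25 and 0.36.

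**Figure D4:**
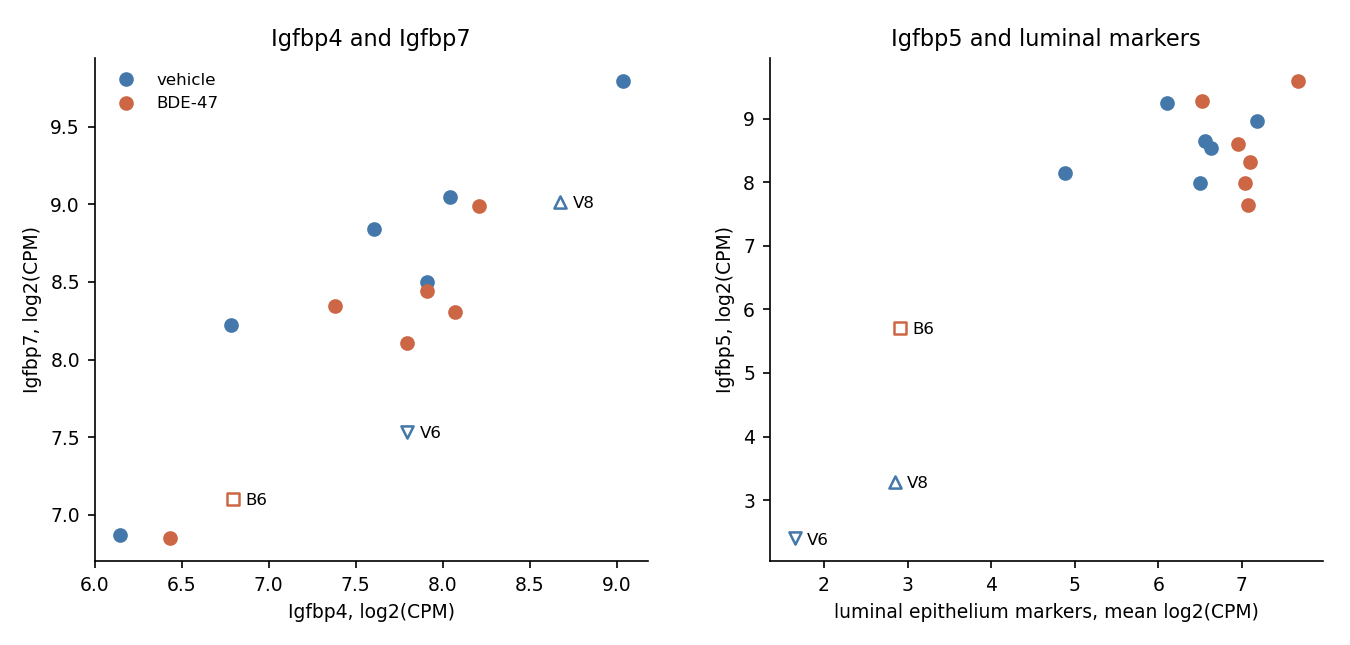
Left, Igfbp7 against Igfbp4, and right, Igfbp5 against the mean of 8 luminal epithelium markers, both in log2(CPM) with 1 point per mouse, blue for vehicle and orange for BDE-47, and open symbols for the 3 libraries that stood apart. Igfbp4 and Igfbp7 go together over the whole range, whereas Igfbp5 falls into 12 mice at 7.64 or above and V6, V8 and B6 at 2.40, 3.29 and 5.71.

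Of 56 other genes of the pathway, 44 passed the filter, and 28 had a higher and 16 a lower mean with BDE-47 (background 49.1% higher). The median difference was 0.23 log2, against -0.02 for all genes tested. Past 2-fold were 7 higher and 3 lower (background 13% and 13.2%). None passed an adjusted p of 0.05 in limma. Past an unadjusted limma p of 0.05 was 1 higher, Irs1 (background 1.94% higher), and 0 lower (background 2.71%). Ins1, Ins2, Insrr, Igfbp1, Igfbpl1, Pappa2, Igf2bp1 and Igf2bp3 were listed at 0 in all mice. They are the insulins, the insulin receptor-related receptor, further binding proteins, a protease of binding proteins and RNA-binding proteins of Igf2 mRNA.

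Irs1, the adaptor that IGF1R and the insulin receptor phosphorylate, ran from 0 to 6.37 log2(CPM) with a median of 4.37 in vehicle mice, and from 4.68 to 7.33 with a median of 6.52 in BDE-47 mice. Vehicle replicates 8 and 6 were the lowest at 0 and 0.04, and the other vehicle mice began at 4.23. Each of the 7 BDE-47 levels exceeded the mean of the vehicle mice, and the difference was 2.36 log2 (SE 0.80, 95% interval 0.74 to 3.98, limma p = 0.00534, adjusted p = 0.982, exact permutation p = 0.0197). It was 1.36 without the 3 libraries (exact permutation p = 0.0325) and 1.13 without vehicle replicates 6 and 8 (exact permutation p = 0.060), where no pathway gene passed an unadjusted limma p of 0.05. Irs2, the related adaptor, ran from 0 to 6.15 with vehicle and from 2.16 to 5.57 with BDE-47, a difference of 0.47 (exact permutation p = 0.665).

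Of the pathway genes tested, Map2k1 also had an exact permutation p under 0.05, and it was picked out after its values were seen. This kinase of the ERK cascade ran from 5.00 to 6.82 log2(CPM) with a median of 6.23 in vehicle mice, and from 4.84 to 5.84 with a median of 5.18 in BDE-47 mice. All 7 BDE-47 mice were below the vehicle mean, with a difference of -0.85 (exact permutation p = 0.00948, limma p = 0.0935, adjusted p = 0.982), and -0.71 without the 3 libraries (exact permutation p = 0.0433). In the whole list of 8 RAS and ERK genes, 5 were higher and 3 lower in mean, and none was past 2-fold (background 49.1% with a higher mean, and 13% and 13.2% past 2-fold).

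Ghr, the growth hormone receptor, ran from 1.33 to 8.06 log2(CPM) with vehicle and from 5.97 to 8.13 with BDE-47, and was lowest in the same 3 libraries as Igfbp5 (1.33, 4.43 and 5.97). Its difference was 0.78 over all mice (exact permutation p = 0.475) and -0.17 without the 3 libraries. Among the 6 genes of growth hormone receptor signalling, 4 were higher and 2 lower in mean, of which Cish and Stat5b were past 2-fold higher (background 49.1% with a higher mean and 13% past 2-fold higher), and none passed the tests. Insr, the insulin receptor, was listed at 0 in vehicle replicate 8 and ran from 4.01 to 6.18 in the other vehicle mice and from 2.60 to 5.90 in BDE-47 mice (exact permutation p = 0.945). Its difference turned from 0.07 to -0.43 without the 3 libraries.

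The genes that set the release of IGF from its binding proteins also overlapped between the groups. Stc2, an inhibitor of PAPP-A, ran from 1.90 to 8.57 log2(CPM) with vehicle and from 4.28 to 9.22 with BDE-47, a difference of 0.30 (exact permutation p = 0.791). This turned to -0.19 without the 3 libraries and -0.69 without vehicle replicates 6 and 8. Pappa itself was above 1 CPM in 2 vehicle mice (3.82 and 4.17) and 3 BDE-47 mice (4.98, 2.35 and 4.45). Htra1, a protease of binding proteins, had a difference of -1.08 (exact permutation p = 0.309), which was -0.15 without the 3 libraries. Igfals, the acid-labile subunit that joins IGFBP3 in serum, was above 1 CPM in 4 mice of each group, at 4.85 log2(CPM) at most, and its difference turned from 0.17 to -0.23 without the 3 libraries.

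In the list of 16 PI3K, AKT and mTOR genes, 9 were higher and 7 lower in mean, with 4 past 2-fold higher and 1 past 2-fold lower (background 49.1% with a higher mean, and 13% and 13.2% past 2-fold). Tsc1, a brake on mTOR, was 1.95 log2 higher in mean (exact permutation p = 0.099), with 4 of 8 vehicle and 6 of the 7 BDE-47 mice above 1 CPM. Foxo3, a transcription factor that AKT holds out of the nucleus, was 1.73 higher in mean (exact permutation p = 0.0789), and 1.07 without the 3 libraries (exact permutation p = 0.299). It was above the highest vehicle mouse (4.17) in 6 of 7 BDE-47 mice and at 0 in BDE-47 replicate 5. Rptor, the scaffold of mTOR complex 1, had a difference of -1.34 (exact permutation p = 0.134). It was at 0 in 1 vehicle and 3 BDE-47 mice. M6pr, the small mannose 6-phosphate receptor, had a difference of -1.29 (exact permutation p = 0.164) and was at 0 in BDE-47 replicate 2.

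Beside these comparisons, 2 of 14 cell type marker lists had an exact permutation p under 0.05 for the mean log2(CPM). These p-values were not adjusted for the 14 lists, and the lists were not tested again without the 3 libraries. Keratinocyte markers were 0.68 log2 higher with BDE-47 (exact permutation p = 0.00932). Of the 6 markers, 5 were above 1 CPM in every vehicle mouse and in every BDE-47 mouse but replicate 4, which had all 6. Their sums were 25.3 to 136 CPM in vehicle and 50.1 to 143 CPM in BDE-47 mice. Lymph node stroma markers differed by -0.96 log2 in mean, BDE-47 minus vehicle (exact permutation p = 0.0443), with sums of 0 to 367 CPM in vehicle and 0 to 1.44 CPM in BDE-47 mice. Vehicle replicates 6 and 8 had sums of 307 and 367 CPM, against at most 19.8 CPM in the 12 libraries other than the 3 that stood apart. Luminal epithelium markers summed to 37.7 to 1840 CPM in vehicle and 150 to 2940 CPM in BDE-47 mice (exact permutation p = 0.228 for the mean log2). The part of these cells in the values of Igf1r, Igfbp3, Irs1 and H19 was not tested.

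**Figure D5:**
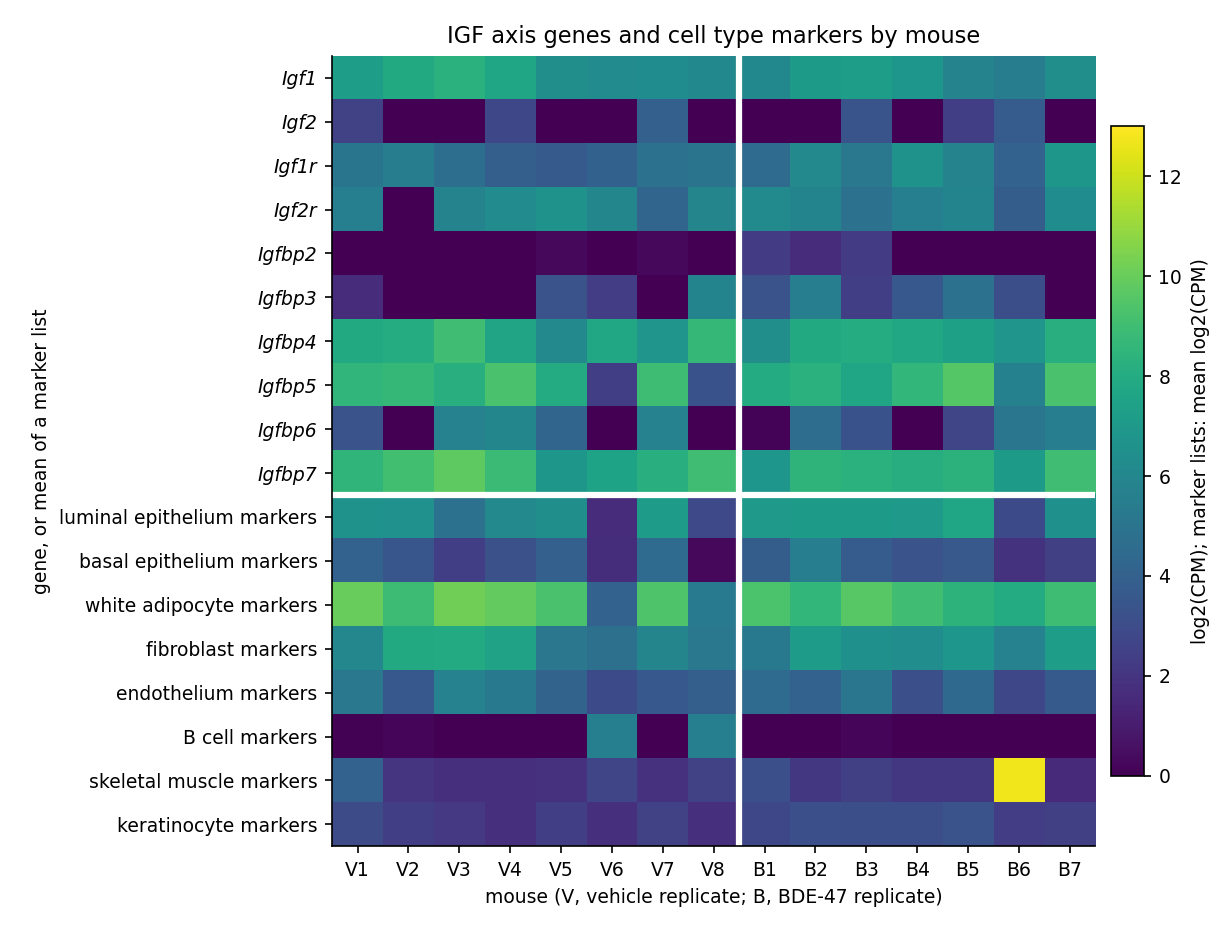
Heat map of log2(CPM) for the 10 IGF axis genes (top rows) and of the mean log2(CPM) of 8 marker lists (bottom rows) in each mouse, V for vehicle and B for BDE-47. V6 and V8 are bright for B cell markers and B6 for skeletal muscle markers, and all 3 are dark for luminal markers and low for Igfbp5.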

How the data were processed

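RNA from left 4th mammary tissue was made into QuantSeq 3′ FWD libraries, 1 per mouse. Per the submitters' processing notes, reads were mapped with STAR 2.5.3a to GRCm38, and the authors deposited 1 table per mouse of log2(CPM), counts scaled to library depth, with values under 1 CPM at 0. Each table held 52636 entries, and 110 with a repeated name were dropped. The lowest steps returned whole reads (tolerance 0.1 read) and so the depth of each library, but counts were not tested. From these values, genes at 1 CPM or more in at least 7 mice were tested by limma 3.58.1 with a trend (R 4.3.3), two-sided, Benjamini-Hochberg adjusted. The script was checked on simulated data. Single genes were tested by exact permutation over the mice (two-sided), mice above the floor by Fisher's exact test, and correlations by 100000 permutations. Intervals are 95%. The members, lists and tests were chosen with earlier results of these data known, and the named pathway genes were 9 chosen by name plus the 3 largest rises and 3 largest falls among those tested. The xenograft covariate of the study is not in the labels and was not used. Gene positions and promoters are from RefSeq GRCm38.p6, in which all 10 genes matched by symbol. Alternatives were other pseudocounts, filters and scalings, a replicate block, and leaving out mice.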

Additional observations from a re-analysis of the deposited data

Results flagged for a closer look

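In 45 groups of values examined, 6 held a mouse far from the others of its group, by Dixon's test at the 95% level. Chance marks about 1 in 20 groups of normally distributed values, which values listed at 0 under 1 CPM are not. The marked values of Igf2r, Rptor, Insr and Foxo3 were listed at 0, so 1 in 20 is no background for them. Igf2r was at 0.0 log2(CPM) in vehicle replicate 2, where the next vehicle mouse was at 4.23. Rptor was at 0.0 in the same mouse, with the next at 2.51. Insr was at 0.0 in vehicle replicate 8, with the next at 4.01, and Stc2 was at 1.90 in vehicle replicate 6, with the next at 6.10. These are the libraries with B cell markers. Htra1 was at 0.17 in BDE-47 replicate 6, the library rich in muscle markers, with the next at 3.04. Foxo3 was at 0.0 in BDE-47 replicate 5, with the next at 4.82.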

How the results depend on the processing

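The adjusted limma p of every IGF axis gene stayed above 0.05 under every alternative with a test, and 183 of 197 values of single genes kept their direction. Values at 0 limit the low genes. They took 28.5% of the values of genes with a mean of 10 to 20 CPM, with the lowest share, 2.3%, for BDE-47 replicate 3 (13927319 reads) and the highest, 44.5%, for the deeper BDE-47 replicate 4 (19375028 reads). Leaving out the 3 libraries was chosen after seeing the data, and then 2 genes of all tested passed an adjusted p of 0.05, neither of them in the axis. IGF axis genes past 2-fold, 3 in all mice, were 1 with log2(CPM + 1) and 1 by the ratio of mean CPM, and 1 to 3 with each mouse left out (1 without BDE-47 replicate 2, 4, 5 or 7 or vehicle replicate 6). Without the 3 libraries 4 IGF axis genes were past 2-fold, Igf1r, Igf2r and Igfbp3 higher and Igfbp6 lower. Those past an unadjusted p of 0.05, 0 in all mice, were 1 without the filter (Igf1r, background 3.52%), 2 without vehicle replicates 6 and 8 (Igf1 and Igfbp3), 2 without the 3 libraries (Igf1r and Igfbp3) and 0 to 1 with each mouse left out (1 without BDE-47 replicate 6, Igf1r, or vehicle replicate 8, Igfbp3). For counts past 2-fold, the share of all genes is given only in the main setting (26.3% in either direction), not under the alternatives. Other pathway genes past 2-fold, 10 in all mice, were 1 with genes above 1 CPM in all mice, 17 with log2(CPM + 0.1) and 9 to 12 with each mouse left out. Those past an unadjusted p, 1 in all mice, were 2 without the filter, 0 without vehicle replicates 6 and 8 and 1 to 3 with each mouse left out (2 or 3 without BDE-47 replicate 1, 4 or 5 or vehicle replicate 8). Of the 15 correlations, 2 passed an adjusted p of 0.05, and 1 did without centring, in which Igf1r and Igfbp7 gave r = 0.43. Igfbp6 turned from -0.07 to 0.73 with log2(CPM + 0.1), 0.10 with log2(CPM + 1) and 0.0294 with median-of-ratios scaling, and ran from -0.52 to 0.44 with each mouse left out. Igf2r turned from 0.45 to -0.0437 by the ratio of mean CPM, and ran from -0.27 to 0.73 with each mouse left out. Igfbp4 turned to 0.0473 without the 3 libraries, and Igfbp5 to -0.43 without vehicle replicates 6 and 8 and to -0.0193 without the 3 libraries. Unless named by its own construction, the cause was not tested. Mice with the same replicate number went together weakly at most (r from -0.02 to 0.05, 0 of 7 above 0.1, 3 of 7 best with their own number). These 7 values are too few and too small to decide whether the numbers pair mice. With a replicate block, 1 IGF axis gene (Igfbp3) and 3 pathway genes passed an unadjusted p of 0.05 (background 3.89%).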
